A study of Mus musculus with 18 samples.

Results

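The genes described here are potassium channel genes by symbol, measured in the mouse vestibular organ, which senses balance in the inner ear. The animals lacked the growth factor gene Igf1 or were wild type. Members were the genes analysed here whose symbol begins with Kcn and a letter from a to v, apart from Kcne1, Kcnq1, Kcnj10 and Kcnj13. That rule goes by symbol, and it was set with earlier results of these data known. There were 88 such genes among the 19938 measured, and each was read by 1 probe set, the one with the highest mean where a gene had several (85 members had 1). Of the 88, 4 encode no channel subunit (Kcnrg, Kcnd3os, Kcnmb4os1 and Kcnmb4os2), and they are counted in every total.

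The 6 groups were Igf1 -/- (null) and Igf1 +/+ (wild type) vestibular organs from embryos at E18.5, from pups at P15 and from adults at P90, with 3 arrays each. All animals had a hybrid Mf1 with 129/sv background, were perfused with 4% paraformaldehyde under pentobarbiturate, and had the inner ear dissected out. The labels call the arrays biological replicates and do not say whether an array is 1 animal or several, so each p-value here speaks of array-to-array spread, which may be technical. Xist, from the inactive X chromosome, and Y-linked genes were both high on all 6 E18.5 arrays (Xist at 7.31 to 8.01, mean of Y-linked genes at 5.23 to 5.95), whereas P90 null 1 read 2.0 for the Y-linked genes and P90 wild type 3 read 1.86 for Xist, and whether arrays hold pooled animals of both sexes was not tested. For the P15 and P90 wild-type arrays the description field reads Igf1 -/-, against the title, source name and genotype field, which were followed. In bulk tissue, here and throughout, fewer cells of a type and less RNA per cell cannot be told apart.

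Levels are log units of an array intensity, and the log base is not stated. One unit stands for a 2.72-fold change if the base is e, the likelier case, and a 2-fold change if it is 2. Igf1 itself read 6.40 to 6.88 in null and 6.98 to 7.07 in wild-type arrays at E18.5, 5.42 to 5.69 in null and 5.87 to 6.11 in wild-type arrays at P15, and 5.31 to 5.51 in null and 5.39 to 5.63 in wild-type arrays at P90, and its genotype differences of -0.43, -0.41 and -0.11 did not pass (adjusted p from 0.16 to 0.76 in limma). No source used here says where its probes lie relative to the deleted part. Of the arrays, 4 (E18.5 null 2 and 3, P90 wild type 1 and 2) stood together on the third principal component, which held 5.5% of the variance, with scores of 13.5 to 18.8 against -25 to 9.9 in the other 14. A level of 3.39, the top reading of Y-linked genes where they were weakest, serves as a guide to dim probe sets, and 9 members (Kcnf1, Kcng3, Kcnj1, Kcnj14, Kcnj4, Kcnk18, Kcnmb1, Kcnu1 and Kcnv2) had every group mean below it, as did 19.8% of all genes. That guide comes from a pair of arrays, and set from 1 array it would be 2.18, with 1 member below it.

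Potassium channels let K+ leave or enter the cell and so set the resting potential, end action potentials and tune firing. In the vestibular organ the sensory hair cells and the afferent neurons carry voltage-gated and calcium-activated channels, and the epithelium around them secretes the potassium-rich endolymph through the channel pair of Kcnq1 and Kcne1, which lies outside the 88 genes. Alpha subunits form the pore of voltage-gated (Kv) channels, silent Kv subunits join them without forming channels alone, and Kv beta, KChIP and Kcne proteins are accessory. Inward rectifiers (Kir) and two-pore channels (K2P) hold the resting potential, and BK, SK and IK channels open with calcium.

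Between E18.5 and P15 many potassium channel genes changed, most of them upward and in both genotypes. In null organs 38 members rose and 14 fell, and in wild-type organs 38 rose and 11 fell (limma, Benjamini-Hochberg adjusted p under 0.05 over all genes). The same test called 20.3% of all genes higher and 20.5% lower in null organs, and 19.7% higher and 21.9% lower in wild-type organs. The median change of the 88 members was 0.24 in null and 0.23 in wild-type organs, against -0.04 and -0.05 over all genes, and the median size of change regardless of sign was 0.55 in null and 0.62 in wild-type organs, against 0.26 over all genes in each. Of the rises, 36 were shared, 94.7% of each genotype's list. Of the falls, 8 were shared, 57.1% of the null list and 72.7% of the wild-type list, and no member moved in opposite directions. With the values as deposited, before quantile normalization, 43 members rose and 2 fell in null organs, and 40 rose and 7 fell in wild-type organs. The falls called on those values were of Kcne4 and Kcnk5 in null organs and of Kcna6, Kcne4, Kcnh8, Kcnk5, Kcnk6, Kcns1 and Kcnu1 in wild-type organs, so the other falls given for this step were not called there. The median of all genes was 0.25 in null and 0.11 in wild-type organs on those values. Leaving out E18.5 null 3 or P15 null 1 left 8 falls in null organs.

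**Figure D1:**
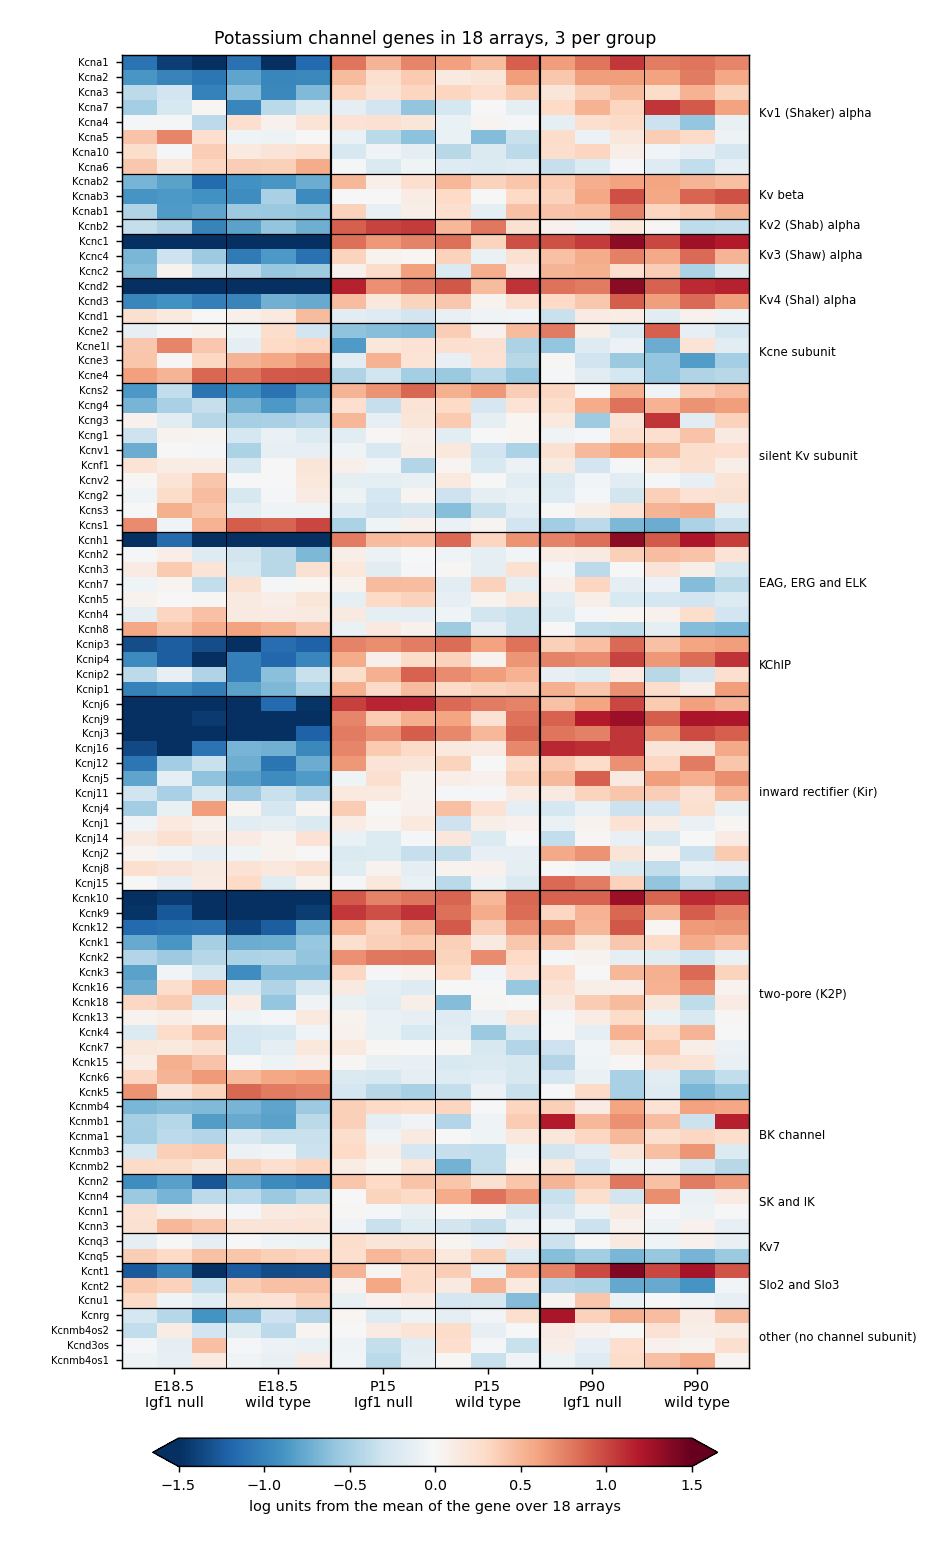
Heat map of the 88 potassium channel genes (rows, by channel class and, within a class, by the wild-type change to P15) in 18 arrays (columns, 3 per group), with colour for the distance in log units from the gene's mean over all arrays and capped at 1.5 either way. Kcnc1, Kcnd2, Kcnh1, Kcnj6, Kcnj9, Kcnj3, Kcnk10 and Kcnk9 are dark blue in the E18.5 arrays of both genotypes and red in the later ones, and Kcne4 runs the other way.

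Among voltage-gated pore subunits, Kcnc1, a Kv3 subunit of fast-firing neurons, showed a large rise. Null arrays read 3.47, 3.55 and 3.62 at E18.5, then 6.07, 5.89 and 5.98 at P15, then 6.20, 6.29 and 6.58 at P90. Wild-type arrays read 3.13, 3.43 and 3.10 at E18.5, then 6.07, 5.57 and 6.21 at P15, then 6.24, 6.51 and 6.43 at P90. No array at E18.5 came near a later one, and the step to P15 was 2.43 ± 0.15 in null organs (SE, adjusted p = 7.4e-09) and 2.73 ± 0.15 in wild-type organs (adjusted p = 2.1e-09). As folds, base e gives 11.4 in null and 15.3 in wild-type organs, and base 2 gives 5.39 and 6.63. The wild-type mean at E18.5, 3.22, lay below the dim guide, so the wild-type folds have a dim reading on their E18.5 side. The null mean at E18.5, 3.55, lay above the guide.

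Kcnd2, a Kv4 subunit of the fast transient A-type current, rose as well. Its arrays read 7.19, 6.72 and 6.83 at P15 against 4.24, 4.03 and 3.85 at E18.5 in null organs. In wild-type organs they read 6.97, 6.51 and 7.12 at P15 against 4.32, 4.27 and 4.29 at E18.5. The rise was 2.87 ± 0.18 in null organs (adjusted p = 8.7e-09) and 2.57 ± 0.18 in wild-type organs (adjusted p = 2.2e-08), and the groups at P15 overlapped between genotypes. All 4 KChIP genes, which encode calcium-binding partners of Kv4 channels, rose in both genotypes, by 0.89 to 2.04 in null and 0.99 to 2.05 in wild-type organs. Kcnip3 stood highest in that range, at 6.06 ± 0.04 in null and 6.08 ± 0.13 in wild-type organs at P15, against 4.03 ± 0.05 in null and 4.03 ± 0.21 in wild-type organs at E18.5 (SD, n = 3 each). The other Kv4 gene that rose was Kcnd3 (1.29 in null, 1.06 in wild type), whereas Kcnd1 fell by 0.35 in null organs and had a difference of -0.30 in wild-type organs that did not pass (adjusted p = 0.069).

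All 3 measured Kv3 genes, all 3 Kv beta genes and Kcnb2, a Kv2 gene, rose in both genotypes. With array medians subtracted in place of quantile normalization, 2 of the 3 Kv3 genes rose in wild-type organs. Kcnc4 rose by 0.65 in null and 1.18 in wild-type organs, and Kcnab2, a Kv beta subunit that joins Kv1 channels, by 1.16 in null and 1.26 in wild-type organs. Kcnb2 rose by 1.59 ± 0.17 in null and 1.21 ± 0.17 in wild-type organs.

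Kv1 genes split in both genotypes. Kcna1, a channel of myelinated axons and presynaptic terminals, read 6.02, 5.73 and 5.95 at P15 against 4.11, 3.81 and 2.71 at E18.5 in null arrays. In wild-type arrays it read 5.83, 5.69 and 6.12 at P15 against 4.10, 3.71 and 4.05 at E18.5. E18.5 null 3 lay far below the other arrays of its age, and the rise was 2.36 ± 0.26 in null organs (adjusted p = 2.6e-06) and 1.92 ± 0.26 in wild-type organs (adjusted p = 1.8e-05). Kcna2, which shares those axonal sites, rose by 1.36 in null and 1.22 in wild-type organs, and Kcna3 by 0.84 and 1.07.

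Kcna10, whose product carries a large conductance of mouse vestibular hair cells, and Kcna6 fell in both genotypes. Kcna10 read 4.48, 4.67 and 4.57 at P15 against 4.99, 4.69 and 5.09 at E18.5 in null arrays. In wild-type arrays it read 4.31, 4.51 and 4.33 at P15 against 4.87, 4.92 and 4.96 at E18.5. No P15 array reached an E18.5 array of its genotype, and the step was -0.35 ± 0.10 in null organs (adjusted p = 0.014) and -0.53 ± 0.10 in wild-type organs (adjusted p = 0.00059). With the values as deposited the fall of Kcna10 was called in neither genotype, and that of Kcna6 was called in wild-type organs and not in null organs (-0.09, adjusted p = 0.71).

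All 4 inward rectifiers of the G protein-gated kind rose in both genotypes. Kcnj6 read 5.08, 5.20 and 5.18 at P15 against 2.44, 2.50 and 2.52 at E18.5 in null arrays. In wild-type arrays it read 4.90, 4.83 and 4.79 at P15 against 2.17, 2.88 and 2.58 at E18.5. Its step was 2.67 ± 0.15 in null organs (adjusted p = 4e-09) and 2.30 ± 0.15 in wild-type organs (adjusted p = 1.4e-08), from a level under the dim guide at E18.5. Kcnj3 rose by 2.54 in null and 2.16 in wild-type organs, Kcnj9 by 2.22 and 2.21, and Kcnj5, the remaining member of that kind, by less (0.59 in null, 1.04 in wild type). Altogether 7 of 13 Kir genes rose in each genotype. Among them were Kcnj12 of the strong rectifiers (0.99 in null, 1.06 in wild type) and Kcnj11, the pore of the ATP-sensitive channel (0.45 in null, 0.47 in wild type). Kcnj16 was another (1.89 in null, 1.12 in wild type), and its null mean at E18.5, 2.82, lay below the dim guide. Kcnj8, the vascular ATP-sensitive subunit, fell by 0.28 in null organs and had a difference of -0.21 in wild-type organs (adjusted p = 0.081). Kcnj2, the strong rectifier of muscle and vessels, had a difference of -0.20 in each genotype and did not pass.

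Two-pore channels also divided. Kcnk10, a mechanosensitive channel, rose by 2.52 ± 0.17 in null and 2.65 ± 0.17 in wild-type organs, and Kcnk9, an acid-sensitive channel of cerebellar granule neurons, by 2.49 ± 0.14 in null and 2.35 ± 0.14 in wild-type organs. Kcnk12, Kcnk1 and Kcnk2 rose by 1.05 to 1.59 in null and 0.95 to 1.78 in wild-type organs. Kcnk3 rose in wild-type organs (0.90), and its difference of 0.48 in null organs did not pass (adjusted p = 0.056). Kcnk5 and Kcnk6 fell, Kcnk5 by 0.78 in null and 1.06 in wild-type organs and Kcnk6 by 0.69 in null and 0.76 in wild-type organs.

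**Figure D2:**
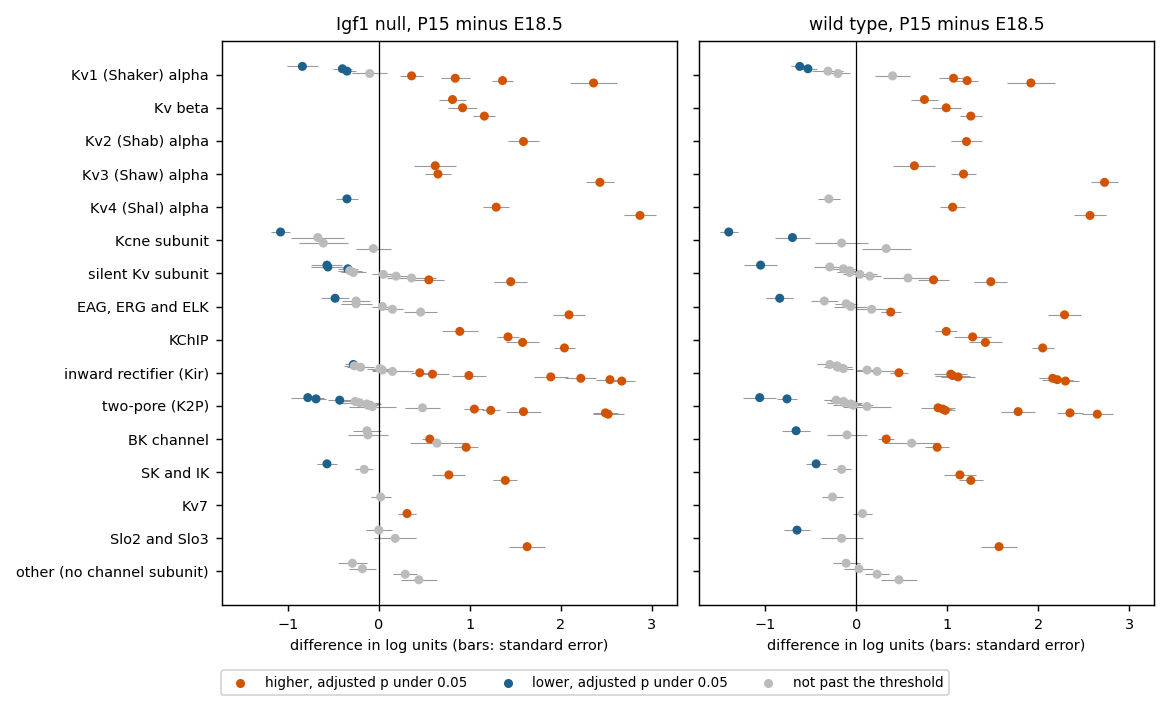
Change of each member to P15 (x axis, P15 minus E18.5 in log units, bars for the standard error) by channel class (y axis), in null organs on the left and wild-type organs on the right, with colour for members past the threshold. Every KChIP, Kv beta, Kv3 and Kv2 gene lies right of 0 in both panels, and no Kcne gene passed on that side.

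Of the calcium- and sodium-activated channels, Kcnn2, the SK channel that acts at efferent synapses on hair cells, rose by 1.39 in null and 1.26 in wild-type organs. Kcnn3 fell by 0.57 in null and 0.44 in wild-type organs, and was called in neither with the values as deposited. The BK pore Kcnma1 rose by 0.56 ± 0.09 in null and 0.33 ± 0.09 in wild-type organs, and its neuronal partner Kcnmb4 by 0.96 in null and 0.89 in wild-type organs. Kcnt1, a sodium-activated channel, rose by 1.63 in null and 1.57 in wild-type organs, and Kcnh1, of the EAG family, by 2.09 in null and 2.29 in wild-type organs. Kcnh8, of the related ELK family, fell by 0.48 in null and 0.84 in wild-type organs, and the null call was lost without P15 null 1 or without E18.5 null 3. Among silent subunits Kcns2 rose (1.45 in null, 1.48 in wild type) and Kcns1 fell (0.56 in null, 1.05 in wild type), and the null fall of Kcns1 was lost without E18.5 null 1, E18.5 null 3 or P15 null 1.

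No Kcne gene rose between E18.5 and P15. Kcne4, an accessory subunit that damps Kv channels, read 5.09, 4.99 and 5.34 at E18.5, then 4.02, 4.20 and 3.96 at P15, then 4.45, 4.32 and 4.21 at P90 in null arrays. In wild-type arrays it read 5.28, 5.39 and 5.41 at E18.5, then 3.92, 4.07 and 3.91 at P15, then 3.90, 4.02 and 4.06 at P90. It was high in all 6 embryonic arrays and low in all 12 later ones, with a fall to P15 of 1.08 ± 0.10 in null organs (adjusted p = 4.3e-07) and 1.40 ± 0.10 in wild-type organs (adjusted p = 2.8e-08).

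**Figure D3:**
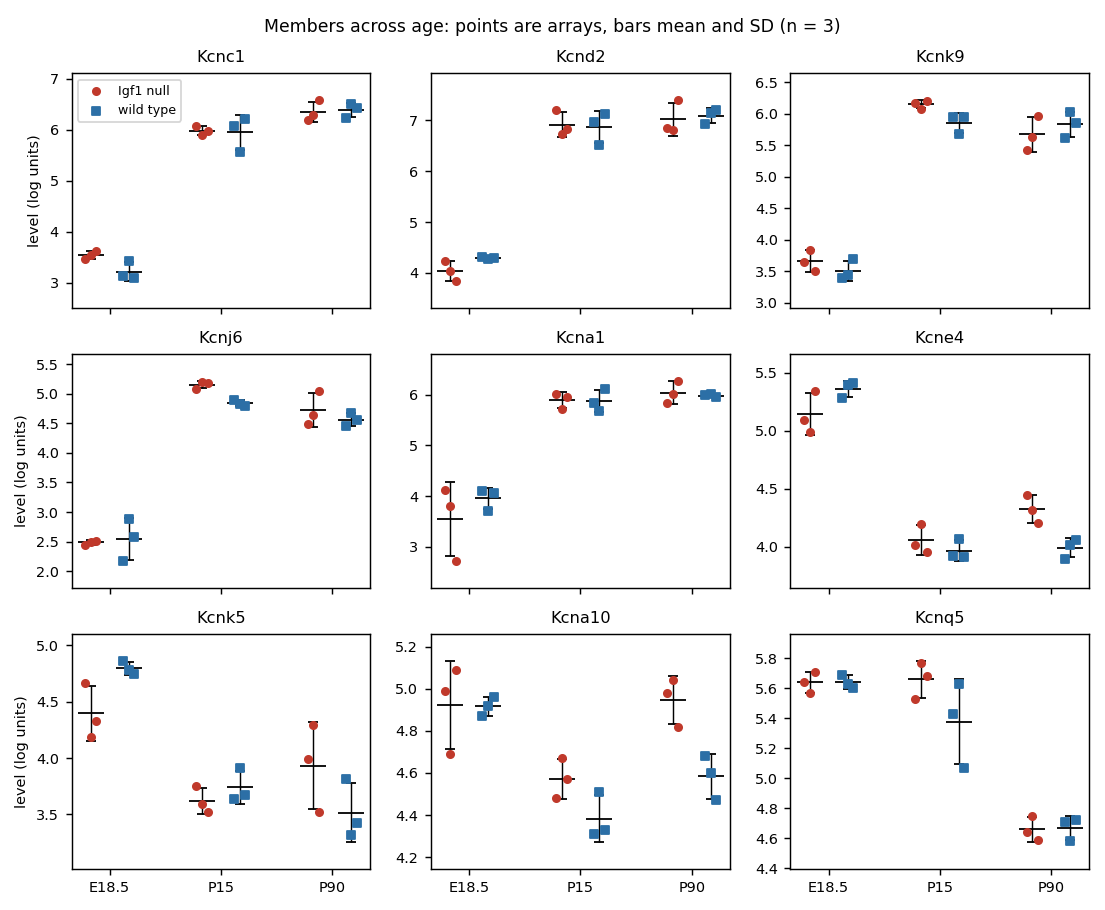
Levels of 9 members (y axis, log units) by age (x axis) in null (circles) and wild-type (squares) arrays, with black bars for the mean and SD of 3 arrays. Kcnc1, Kcnd2, Kcnk9, Kcnj6 and Kcna1 are low at E18.5 alone, Kcne4 is highest at E18.5, and Kcnq5 is lower at P90 than at both earlier ages.

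In null organs alone Kcna4 and Kcnq3 rose and Kcna5, Kcnd1, Kcnj8, Kcnk15, Kcns3 and Kcnv2 fell, and in wild-type organs alone Kcnh2 and Kcnk3 rose and Kcne3, Kcnmb2 and Kcnu1 fell. Of these 8 and 5 members, 0 passed the limma F-test that the genotype difference is the same at the 3 ages. Without the 4 arrays that stood together, 37 members rose and 8 fell in null organs and 39 rose and 13 fell in wild-type organs. That fit leaves 1 E18.5 null array, which is assumed to vary like the other groups. The 10 largest rises were of 10 genes common to both genotypes (Kcnc1, Kcnd2, Kcnk10, Kcnk9, Kcnj6, Kcnh1, Kcnj9, Kcnj3, Kcnip3 and Kcna1) and passed under every alternative that was run. Of the 36 members that rose in both genotypes, 8 had E18.5 means below the dim guide in both, Kcnj6 and Kcnj9 among them.

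Genes of neighbouring tissue moved at the same step. All 12 genes of a list of cerebellar and brain markers rose in both genotypes, with a list mean per array of 3.81 to 4.18 in null and 3.71 to 3.92 in wild-type arrays at E18.5, 6.80 to 6.90 in null and 6.63 to 6.90 in wild-type arrays at P15, and 6.61 to 6.95 in null and 6.58 to 6.91 in wild-type arrays at P90. The granule-cell gene Gabra6 averaged 2.35 in null and 2.53 in wild-type arrays at E18.5, and 7.88 in null and 7.97 in wild-type arrays at P15. None of the 12 had all its group means below the dim guide. The mean of the 36 channel genes that rose in both genotypes ran from 3.70 to 3.87 in null and 3.76 to 3.83 in wild-type arrays at E18.5, and from 5.16 to 5.31 in null and 5.08 to 5.31 in wild-type arrays at P15.

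Of 15 general neuronal genes, 10 rose in null and 11 in wild-type organs and 1 fell in each, with list means of 4.53 to 5.53 in null and 4.71 to 4.88 in wild-type arrays at E18.5 and 6.05 to 6.24 in null and 5.90 to 6.14 in wild-type arrays at P15. Of 18 hair-cell genes, 2 rose and 9 fell in null organs and 1 rose and 10 fell in wild-type organs. Their list mean was 4.06 to 4.42 in null and 4.22 to 4.37 in wild-type arrays at E18.5, and 3.96 to 4.06 in null and 3.87 to 4.06 in wild-type arrays at P15. Pvalb stands in this list and in the skeletal muscle list. It averaged 5.2 in null and 4.79 in wild-type arrays at E18.5, and 7.43 in null and 7.75 in wild-type arrays at P15. The hair-cell factor Pou4f3 averaged 3.45 in null and 3.65 in wild-type arrays at E18.5 and lay below the dim guide at P15 (2.39 in null, 2.43 in wild type), and Strc lay below it at all ages. Of 9 measured genes of myelinating glia, 6 rose and 2 fell in null organs and 5 rose and 2 fell in wild-type organs, with list means of 5.52 to 5.63 in null and 5.60 to 5.77 in wild-type arrays at P15 against 4.64 to 4.72 in null and 4.68 to 4.75 in wild-type arrays at E18.5. Skeletal muscle genes went opposite ways in the genotypes. Of 14, 3 rose and 9 fell in null organs, with list means of 5.85 to 6.23 at P15 against 6.12 to 6.65 at E18.5, whereas 8 rose and 1 fell in wild-type organs, with list means of 6.53 to 6.65 at P15 against 5.36 to 5.79 at E18.5. All 7 measured osteoblast genes rose in both genotypes, and of 9 B cell genes 8 rose in null and 7 in wild-type organs. Of 12 heart and smooth muscle genes, 1 rose and 8 fell in null organs and 0 rose and 7 fell in wild-type organs. Of 8 dark cell and secretory epithelium genes, 2 rose and 3 fell in null organs and 1 rose and 6 fell in wild-type organs. The null rises were of Atp1b2 and Slc12a2 and the wild-type rise was of Atp1b2. Both genes also stand in the list of pumps and cotransporters used below. The part of these tissues in the changes of the channel genes, those called in 1 genotype alone included, was not tested.

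**Figure D4:**
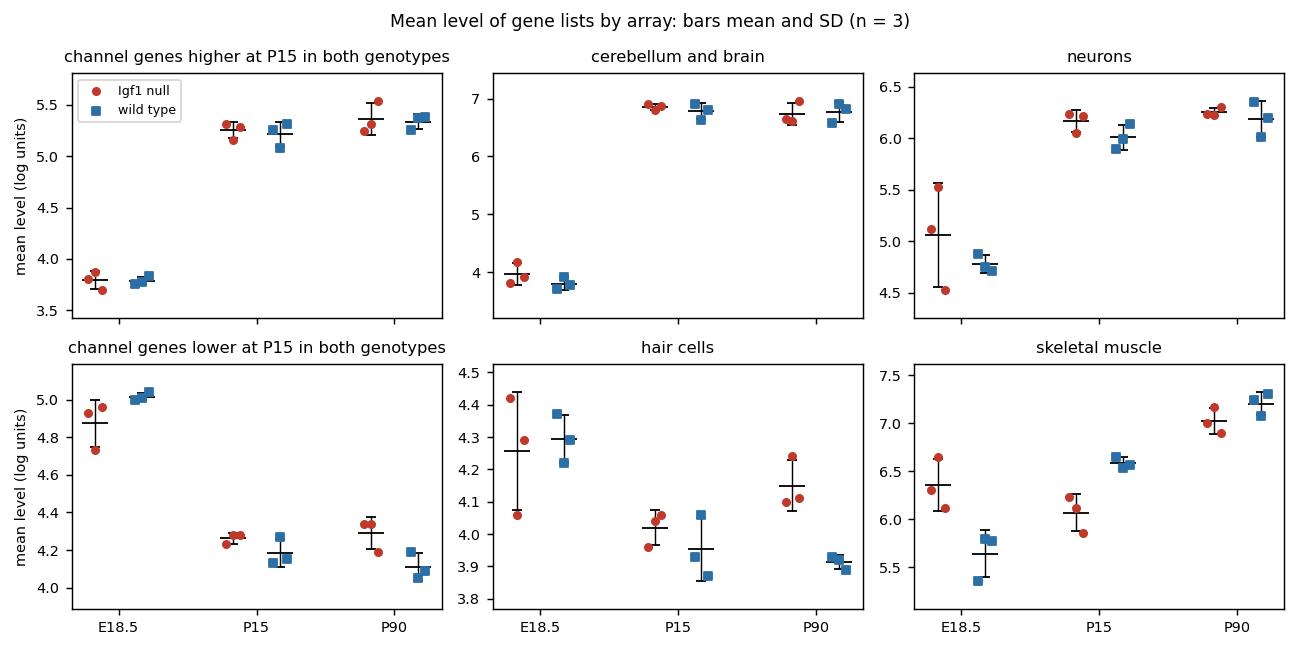
Mean level per array (y axis, log units) of the channel genes that rose (top left) or fell (bottom left) to P15 in both genotypes and of 4 marker lists, by age (x axis), in null (circles) and wild-type (squares) arrays, with black bars for the mean and SD of 3 arrays. The channel genes that rose, the cerebellar list and the neuronal list all step up between E18.5 and P15, and the muscle list is highest at P90.

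Promoter sequences are given for 4 members: Kcnc1 and Kcnj6, which rose to P15, Kcne4, which fell, and Kcnj15, the neighbour of Kcnj6 on chromosome 16 and the member that differed between genotypes at P90. They were chosen after the values were seen. Each window runs from 250 bases before to 50 after a RefSeq transcription start (GRCm38.p6), read 5′ to 3′ on the gene's strand, which is minus for Kcnj6 and plus for the others. The windows lie at chr7:46396218-46396517 for Kcnc1, chr16:94997647-94997946 for Kcnj6 (1 of 2 windows), chr1:78816661-78816960 for Kcne4 and chr16:95257308-95257607 for Kcnj15. Capitals mark matches on either strand to 5 motifs, which may share bases. GGGCGG is the GC box and TATAAA the TATA box. The E-box of neuronal and hair-cell bHLH factors was searched as CAGATG. The core of the cAMP response element was searched as TGACG, and a short piece of the site of the neuronal repressor REST as GGACAG.
Kcnc1: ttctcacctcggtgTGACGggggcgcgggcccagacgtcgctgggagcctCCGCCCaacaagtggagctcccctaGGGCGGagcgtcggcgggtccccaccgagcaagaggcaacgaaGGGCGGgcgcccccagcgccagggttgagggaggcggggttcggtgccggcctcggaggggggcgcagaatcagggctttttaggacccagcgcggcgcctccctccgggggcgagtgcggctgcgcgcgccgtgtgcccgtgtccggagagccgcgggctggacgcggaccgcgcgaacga
Kcnj6: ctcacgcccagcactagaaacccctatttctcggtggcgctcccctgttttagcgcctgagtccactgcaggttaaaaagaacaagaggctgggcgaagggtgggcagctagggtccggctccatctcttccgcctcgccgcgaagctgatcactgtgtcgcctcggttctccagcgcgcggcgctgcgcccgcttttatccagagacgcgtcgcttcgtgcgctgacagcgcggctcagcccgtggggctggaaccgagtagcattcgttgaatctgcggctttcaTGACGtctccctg
Kcne4: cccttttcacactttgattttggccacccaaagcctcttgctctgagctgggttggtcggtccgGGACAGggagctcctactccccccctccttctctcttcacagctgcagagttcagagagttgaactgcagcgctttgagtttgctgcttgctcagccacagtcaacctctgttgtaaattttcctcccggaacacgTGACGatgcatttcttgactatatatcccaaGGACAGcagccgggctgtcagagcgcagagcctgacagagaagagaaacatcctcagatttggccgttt
Kcnj15: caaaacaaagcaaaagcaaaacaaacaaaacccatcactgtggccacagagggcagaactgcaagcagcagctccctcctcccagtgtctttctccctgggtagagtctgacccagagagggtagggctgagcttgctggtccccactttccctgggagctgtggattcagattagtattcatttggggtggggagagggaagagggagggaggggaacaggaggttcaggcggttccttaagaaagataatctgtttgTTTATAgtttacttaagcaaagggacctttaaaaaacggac
The Kcnc1 window holds 3 GC boxes and has 74.7% G and C, whereas the Kcnj15 window has 49.7% and holds a TATA box match on the opposite strand.

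RefSeq promoter windows were found for 68 members, 93 windows in all. A GC box stood in 47.3% of them, against 35.7% of all 32851 windows, and a TATA box in 4.3%, against 13.6%. The E-box stood in 20.4% against 17.2%, the cAMP response core in 17.2% against 20.8%, and the REST piece in 29% against 22.2%. In the 48 windows of members that rose to P15 in both genotypes these shares were 47.9% for the GC box, 6.25% for the TATA box, 16.7% for the E-box, 8.33% for the cAMP response core and 25% for the REST piece. Windows of 1 gene overlap, and such matches describe letters, not binding.

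Some channel genes lie side by side, and neighbours did not always move together. Within 300 kb of another Kcn gene there were 31 genes in 13 clusters. On chromosome 3, Kcna3, Kcna2 and Kcnc4 rose to P15 in both genotypes, whereas Kcna10, between Kcna2 and Kcnc4, fell. On chromosome 6, Kcna1 rose and its neighbour Kcna6 fell in both genotypes. Antisense genes and their partners (Kcnd3os, Kcnmb4os1 and Kcnmb4os2) overlap or abut, and no source used here says whether the array reads strands apart. On chromosome 16, Kcnj6 rose by 2.67 in null and 2.30 in wild-type organs, and Kcnj15 had differences of 0.01 in null and -0.29 in wild-type organs, neither past the test.

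From P15 to P90 fewer members changed. In null organs 11 rose and 6 fell, where 6.12% of all genes rose and 6.83% fell. In wild-type organs 13 rose and 5 fell, where 8.08% of all genes rose and 9.78% fell. Of the falls, 5 were shared (Kcnk2, Kcnq5, Kcnb2, Kcnt2 and Kcnip2), 83.3% of the null list and all of the wild-type list. Of the rises, 5 were shared (Kcna7, Kcnt1, Kcnab3, Kcnj9 and Kcnc4), 45.5% of the null list and 38.5% of the wild-type list. With the values as deposited, 47 members rose and 1 fell in null organs and 33 rose and 1 fell in wild-type organs, and the median of all genes then shifted by 0.39 in null and 0.20 in wild-type organs, against 0.02 and 0.01 after quantile normalization. Changes at this step are therefore relative to the other genes of the same arrays.

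Kcnq5, a Kv7 subunit of the slow M-type current that also occurs in vestibular calyx afferents, fell late. It read 5.64, 5.57 and 5.71 at E18.5, then 5.53, 5.77 and 5.68 at P15, then 4.64, 4.75 and 4.59 at P90 in null arrays. In wild-type arrays it read 5.69, 5.63 and 5.60 at E18.5, then 5.43, 5.63 and 5.07 at P15, then 4.71, 4.58 and 4.72 at P90. All 6 adult arrays lay below all earlier ones, with a fall of 1.00 ± 0.11 in null (adjusted p = 7.4e-05) and 0.70 ± 0.11 in wild-type organs (adjusted p = 0.0012). Kcnk2, a mechanosensitive channel that had risen to P15, fell by 0.79 ± 0.10 in null and 0.64 ± 0.10 in wild-type organs. Kcnb2 averaged 4.64 ± 0.10 in null and 4.35 ± 0.22 in wild-type organs at P90, after 5.57 ± 0.08 in null and 5.09 ± 0.28 in wild-type organs at P15 (SD, n = 3 each), and fell by 0.93 in null and 0.74 in wild-type organs. In null organs the 3 falls held without any 1 array. In wild-type organs those of Kcnq5 and Kcnk2 did, and that of Kcnb2 was lost without P15 wild type 2. With the values as deposited the fall of Kcnq5 was called in both genotypes, whereas those of Kcnk2 (-0.44 in null, -0.46 in wild type, adjusted p = 0.064 and 0.072) and Kcnb2 (-0.56 in null, -0.52 in wild type, adjusted p = 0.051 and 0.089) were called in neither. With the 4 arrays left out, which leaves 1 adult wild-type array, the wild-type differences of Kcnq5 (-0.66, adjusted p = 0.08) and Kcnk2 (-0.55, adjusted p = 0.087) did not pass.

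Kcna7, a Kv1 gene of muscle, rose by 0.73 ± 0.19 in null (adjusted p = 0.02) and 1.00 ± 0.19 in wild-type organs (adjusted p = 0.0034). Its arrays read 4.20, 4.43 and 4.23 at P90 against 3.76, 3.61 and 3.31 at P15 in null organs, and 4.98, 4.82 and 4.51 against 3.64, 3.90 and 3.77 in wild-type organs. Kcnt1 rose again, by 0.76 in null and 0.80 in wild-type organs. Kcnj2 rose by 0.73 ± 0.15 in null organs (adjusted p = 0.0054) and had a difference of 0.24 in wild-type organs (adjusted p = 0.28). All 14 genes of a skeletal muscle list rose in null and 9 of 14 in wild-type organs at this step, with list means of 6.90 to 7.17 in null and 7.07 to 7.30 in wild-type arrays at P90 and of 5.85 to 6.23 in null and 6.53 to 6.65 in wild-type arrays at P15. No muscle gene lay below the dim guide, and its part in these changes was not tested.

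The late counts changed with the arrays and the fit. The share of all genes called in each such fit is not given, so these counts are not results about channel genes in particular. Without P15 null 2, or without P15 null 3, 3 members rose and 3 fell in null organs, and without P90 null 1, 2 or 3 the rises were 7, 5 and 7. In wild-type organs 2 rose and 2 fell without P15 wild type 2, 2 rose and 3 fell without P90 wild type 2, and 4 rose without P90 wild type 1. With the 4 arrays left out, 0 members rose and 1 fell in wild-type organs, and 11 rose and 6 fell in null organs, in a fit where 1 adult wild-type array is assumed to vary like the other groups. Sex-linked signal also shifted at this step in wild-type organs, with Xist at 1.86 to 3.33 at P90 against 5.34 to 7.48 at P15, while null arrays read 7.42 to 7.91 at P90 against 4.09 to 8.09 at P15. With a sex score as a covariate 2 members rose and 3 fell in wild-type organs and 7 rose and 4 fell in null organs, and with only the groups compared 3 rose and 2 fell in wild-type organs and 4 rose and 4 fell in null organs. The part of sex in the late changes was not tested further. Of the 10 largest rises, 2 in null organs (Kcnj15 and Kcnj2) and 1 in wild-type organs (Kcna7) were called without each array in turn.

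The study's question is what the loss of Igf1 does to the vestibular organ, and 1 of the 88 genes passed a test between the genotypes at any age. At E18.5, 0 members passed the test in limma, where 0.0802% of all genes did, and 14 members had an unadjusted p under 0.05 (12.5% of all genes). The arrays of null and wild-type organs did not overlap for 21 members (23.9%), against 19.7% of all genes. At P15, 0 members passed, where 0.015% of all genes did, 8 had an unadjusted p under 0.05 (6.97% of all genes) and 12 did not overlap (13.6% of members, 16.5% of all genes). At P90, 1 member passed and it was higher, where 0.296% of all genes passed and 0.241% were higher, 12 had an unadjusted p under 0.05 (11.1% of all genes) and 6 did not overlap (6.82% of members, 10.5% of all genes). For the mean over the 3 ages 0 members passed, where 0.0351% of all genes did, with 10 at an unadjusted p under 0.05 (7.68% of all genes). The smallest p-values of that mean belonged to Kcnj15 (0.45 ± 0.08, adjusted p = 0.064), Kcna10 (0.19, adjusted p = 0.35), Kcnb2 (0.29, adjusted p = 0.36) and Kcnn4, the IK channel (-0.31, adjusted p = 0.39).

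The member that passed at P90 was Kcnj15, an inward rectifier of epithelial cells on chromosome 16 (16:95257558-95300260, GRCm38.p6). It read 4.52, 4.43 and 4.01 in null arrays against 3.07, 3.30 and 3.14 in wild-type arrays at P90. Those wild-type readings (mean 3.17) all lay below the dim guide of 3.39, and above the 2.18 of a guide set from 1 array. The null readings lay above both, so the fold given next has a dim reading on its wild-type side. Every null array lay above every wild-type array, and the difference was 1.15 ± 0.14 (SE, adjusted p = 0.0027), a fold of 3.16 for base e or 2.22 for base 2. At E18.5 it read 3.67, 3.54 and 3.79 in null and 3.96, 3.48 and 3.72 in wild-type arrays, and at P15 3.65, 3.82 and 3.57 in null and 3.26, 3.59 and 3.45 in wild-type arrays, with differences of -0.05 and 0.25 that did not pass. From P15 to P90 it rose by 0.64 ± 0.14 in null organs (adjusted p = 0.0095), while the wild-type difference was -0.26 (adjusted p = 0.22).

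At P90 the genotypes also differed in sex-linked signal, with Xist at 7.42 to 7.91 in null and 1.86 to 3.33 in wild-type arrays. The mean of Y-linked genes was 2.0, 5.44 and 5.49 in null arrays 1, 2 and 3, against 6.12, 6.12 and 6.32 in wild-type arrays. P90 null 2 and 3 thus held both signals. With a sex score as a covariate the Kcnj15 difference was 0.93 and did not pass (adjusted p = 0.73), and 0 genes of all those tested passed at P90 in that fit. With the 2 groups fitted alone the adjusted p was 0.1, and with the 4 arrays left out, which leaves 1 wild-type array assumed to vary like the other groups, it was 0.21 for a difference of 1.18. Without any 1 of the 6 adult arrays the difference was 1.05 to 1.30 and passed (adjusted p from 0.00084 to 0.021). Macrophage genes were higher at P90 in 3 of 10 cases and lower in 0. Their list means were 5.20 to 5.53 in null and 4.76 to 5.0 in wild-type arrays. In that list Mmp12 averaged 6.15 in null and 3.9 in wild-type arrays, Gpnmb 5.97 and 4.12, and Cd14 4.77 and 3.79. Gaps of the other macrophage genes were smaller and of both signs. Cd68 averaged 6.27 and 6.06, Csf1r 5.75 and 5.74, and Cd163 4.29 and 4.67. B cell genes were lower in 4 of 9, with list means of 3.94 to 4.28 in null and 4.72 to 4.80 in wild-type arrays. Of 8 genes of dark cells and secretory epithelium 0 passed at P90, with list means of 4.93 to 5.15 in null and 4.72 to 4.80 in wild-type arrays. None of the macrophage, B cell or dark cell genes lay below the dim guide in all groups. The part of sex, of the 4 arrays and of these cells in the Kcnj15 difference was not tested further, and sex and genotype cannot be told apart at P90.

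Kcnj16, a Kir subunit that works in pairs with other Kir channels in epithelia and glia, had the next smallest p at P90. It read 5.37, 5.35 and 5.31 in null arrays against 4.43, 4.44 and 4.81 in wild-type arrays, and the groups did not overlap. The difference of 0.78 ± 0.19 did not pass (adjusted p = 0.1). It passed without P90 wild type 3, the highest wild-type reading. That fit leaves P90 wild type 1 and 2, which both belong to the 4 arrays that stood together. At E18.5 the order was the other way, with 2.89, 2.44 and 3.14 in null arrays and 3.54, 3.52 and 3.28 in wild-type arrays (-0.63 ± 0.19, adjusted p = 0.21), and the null arrays again lay clear of the wild-type ones.

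Kcna10 read 4.98, 5.04 and 4.82 in null arrays against 4.68, 4.60 and 4.47 in wild-type arrays at P90, without overlap, and its difference of 0.37 ± 0.10 did not pass (adjusted p = 0.19). It rose by 0.37 from P15 to P90 in null organs (adjusted p = 0.028) and had a difference of 0.20 in wild-type organs (adjusted p = 0.2). Of the 18 hair-cell genes, 1 was higher in null organs at P90 and 0 were lower, with list means of 4.10 to 4.24 in null and 3.89 to 3.93 in wild-type arrays, and their part in these values was not tested. Kcna4, an A-type Kv1 gene, read 3.73, 4.10 and 4.15 in null and 3.54, 3.28 and 3.75 in wild-type arrays at P90, where 1 array of each genotype overlapped (0.47 ± 0.13, adjusted p = 0.19).

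At P15 the smallest p belonged to Kcne2, an accessory subunit of secretory epithelia. It read 3.45, 3.41 and 3.39 in null arrays against 4.42, 4.11 and 4.52 in wild-type arrays, clear of each other, and the difference of -0.93 ± 0.27 did not pass (adjusted p = 0.49). Its null readings lay at or just above the dim guide of 3.39. Kcnk2 (0.31), Kcnmb2 (0.46) and Kcnb2 (0.48) came next, with adjusted p from 0.52 to 0.53. At E18.5 the smallest p belonged to Kcnh2, the ERG channel, at 4.31, 4.44 and 4.15 in null arrays against 4.07, 3.93 and 3.67 in wild-type arrays (0.41 ± 0.11, adjusted p = 0.16), followed by Kcnc4 (0.50, adjusted p = 0.17), Kcnj16 and Kcna5 (0.52, adjusted p = 0.25). At E18.5 the skeletal muscle list was also higher in null organs for 5 of 14 genes and lower for 0, with list means of 6.12 to 6.65 in null and 5.36 to 5.79 in wild-type arrays, and its part in these differences was not tested.

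**Figure D5:**
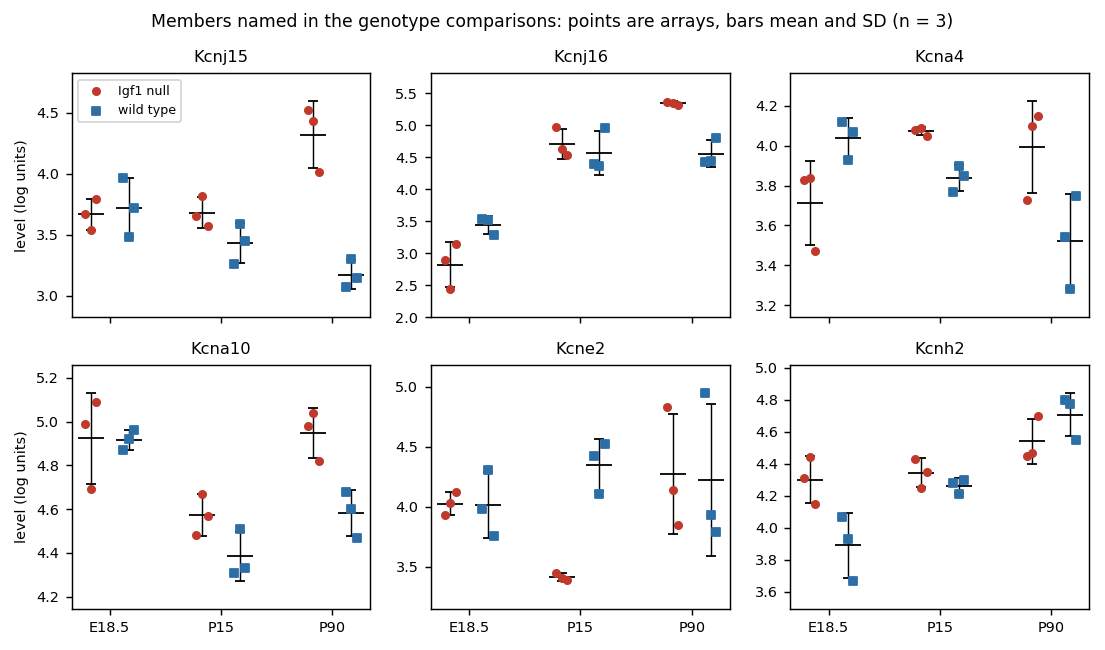
Levels of 6 of the members with the smallest p in a genotype comparison (y axis, log units) by age (x axis) in null (circles) and wild-type (squares) arrays, with black bars for the mean and SD of 3 arrays. Kcnj15 separates the genotypes at P90 (4.01 to 4.52 in null, 3.07 to 3.30 in wild type), and Kcnj16 has its null arrays below wild type at E18.5 and above it at P90. The Kcnj15 wild-type readings at P90 and the Kcnj16 null readings at E18.5 lie below the dim guide.

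Whether the genotype difference changed with age was asked with an F-test over the 3 ages. Kcnj15 was the member that passed (F = 18.69, adjusted p = 0.044), where 0.256% of all genes did, and 16 members had an unadjusted p under 0.05 (14.5% of all genes). Kcnj16 (F = 14.29, adjusted p = 0.077), Kcna4 (F = 9.76, adjusted p = 0.14) and Kcne4 (F = 8.04, adjusted p = 0.18) followed and did not pass. The Kcnj15 call was kept in 8 of 28 alternatives, with adjusted p from 0.016 to 0.5, and without P90 wild type 3 there were 4 calls.

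Among genes that work beside the channels, channel partners that changed to P15 rose, whereas pumps and cotransporters went both ways. The list of 15 channel partners, which was drawn up with earlier results of these arrays known, had 9 rises in null and 10 in wild-type organs to P15 and no fall, where 20.3% and 19.7% of all genes rose. From P15 to P90, 2 partners rose and 2 fell in null organs and 3 rose and 0 fell in wild-type organs. Among all the genes of this paragraph, the 4 largest wild-type changes at that step were of Pex5l (0.79), Amigo1 (0.61), Hcn2 (0.61) and Lrrc26 (0.45, not past the test). In null organs they were 0.74, 0.36, 0.25 and 0.27, and of these the Pex5l change alone passed. Dpp6 and Dpp10, accessory subunits of Kv4 channels, rose by 1.97 and 1.96 in null and by 2.17 and 1.74 in wild-type organs. Lgi1, a secreted partner of Kv1 channels, rose by 2.01 in null and 1.71 in wild-type organs, and Ank3, the ankyrin that anchors Kv7 channels at the axon initial segment, by 1.16 and 1.14. Of 12 pump and cotransporter genes, 5 rose and 3 fell in null organs and 4 rose and 3 fell in wild-type organs to P15 (median change -0.02 in null, 0.07 in wild type), with Slc12a5, the neuronal potassium-chloride cotransporter, at 2.56 in null and 2.49 in wild-type organs. Of 3 HCN genes, which carry a mixed cation current, 1 rose in null and 2 in wild-type organs, Hcn2 by 1.14 and 1.03. No gene of these lists passed in a genotype comparison at any age. The 4 genes set outside the rule behaved unlike each other: Kcnj10, of glia and marginal epithelium, rose to P15 by 0.72 in null and 0.77 in wild-type organs, Kcnq1 fell by 0.32 and 0.27, Kcne1 fell by 0.50 in wild-type organs with -0.01 in null organs, and Kcnj13 passed in neither.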

How the data were processed

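RNA of mouse vestibular organs was hybridised to Affymetrix Mouse Gene 1.1 ST arrays, 18 in all, and the authors deposited 1 value per probe set on what is read here as a natural log scale. No source used here gives the base, background correction or normalization, and no scanner files were used, so array number limits the precision. Array medians of the deposited values ran from 3.88 to 4.82, and the top value, 10.03, corresponds to an intensity of 22700 for base e or 1050 for base 2.

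The values were quantile-normalized. Of 28853 probe sets, 23410 are listed in the platform annotation and 21789 have 1 symbol, and the probe set with the highest mean was kept for each of 19938 genes. All genes and 6 groups were fitted at once in limma 3.58.1 (R 4.3.3) with lmFit and eBayes, whose prior had 2.98 degrees of freedom. P-values were adjusted by Benjamini-Hochberg over all genes, with a threshold of 0.05. On simulated data for the genotype difference at P15 (19938 genes), 42% of changes of 0.5 units, 82% of 1 unit and 100% of 2 units were recovered, with 4 false calls among 137. Those sizes were given to 100, 50 and 50 genes, with independent noise and no effect shared between genes of an array. In the measured comparison at P15, 3 genes passed, which makes the adjusted threshold stricter, so the recovered shares do not carry over to it. Groups follow the labels' titles and genotype fields.

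The dim guide is the highest level of 3 Y-linked genes in the pair of arrays with the least Y-linked signal. Genes named are the members called or with the 4 smallest p in each genotype comparison and in the test by age. The 10 largest rises and falls of each age step and the pair with the smallest wild-type p in each class were added. So were a list of genes by role and, from partner lists, the 4 largest wild-type changes per step. Ank3 was named outside these rules. Kcna3, Kcnd1, Kcnd3os, Kcnj5, Kcnj11, Kcnk3, Kcnk12, Kcnv2 and the members under the dim guide were named after their values were seen. Members, lists and tests were chosen with earlier results of these data known. Promoter windows are RefSeq's (GRCm38.p6). Alternatives were other scalings, filters and fits, the replicate number as a block, a sex score, and leaving arrays out.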

Additional observations from a re-analysis of the deposited data

Results flagged for a closer look

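Kcnj15 differed between ages in its genotype difference by the F-test of genotype by age in limma (adjusted p = 0.044). The difference, null minus wild type, was -0.05 at E18.5, 0.25 at P15 and 1.15 at P90. The call by age was kept in 8 of 28 alternatives, and sex and genotype cannot be told apart at P90.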

How the results depend on the processing

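The values named for single genes kept their sign in all 1634 recomputations under 11 alternatives and the leave-one-out fits, and 1399 kept their side of the threshold, while 219 lost the call and 16 gained it. With the values as deposited, 7 members fell to P15 in wild-type and 2 in null organs, 47 rose and 1 fell to P90 in null organs, 33 rose and 1 fell to P90 in wild-type organs, and 0 passed by age. With medians subtracted 1 member was higher for the genotype mean and 0 passed by age, and without the genes of lowest mean 1 was higher for the mean. With only the groups compared, P90 had 0 higher, null organs had 4 late rises, and wild-type organs had 3 late rises and 2 late falls. With a sex score P90 had 0 higher, null organs had 7 late rises, wild-type organs had 2 late rises and 3 late falls, and 0 passed by age. With array weights P15 had 1 lower, P90 5 higher, the mean 1 higher, null organs 27 late rises and 13 late falls, and 6 passed by age. With trend and robust options the mean had 1 higher and 2 passed by age. With a term for the 4 arrays, 8 members fell to P15 in null organs, 2 rose and 2 fell late in wild-type organs and 0 passed by age. Without those 4 arrays, an alternative chosen after seeing the data, P90 had 0 higher, 8 fell to P15 in null organs, 0 rose and 1 fell late in wild-type organs, and 0 passed by age. The cause was not tested. For these and the leave-one-out fits, here and above, the share of all genes called is not given, apart from the sex score at P90. Their counts are therefore not results about channel genes in particular.

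Leaving out 1 array at a time gave 0 calls at E18.5 and P15, 1 to 4 higher and 0 lower at P90 (4 without P90 wild type 3), 0 to 4 by age, and 0 to 1 higher and 0 lower for the mean (1 without P90 null 3). To P15 it gave 34 to 41 rises and 8 to 13 falls in null and 36 to 38 rises and 11 to 12 falls in wild-type organs. To P90 it gave 3 to 10 rises and 3 to 7 falls in null and 2 to 16 rises and 2 to 6 falls in wild-type organs. The test by age had 0 calls without E18.5 null 2 or 3, E18.5 wild type 1 or 3, any P15 array, P90 null 1 or 2, or P90 wild type 1 or 2.

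Deviations of same-numbered null and wild-type arrays from their group means had correlations of -0.02, 0.07 and 0.01 (E18.5), 0.12, 0.41 and 0.01 (P15), and 0.36, -0.2 and 0.03 (P90). With 3 arrays behind each group mean, these values cannot tell whether the numbers pair the arrays. With the replicate block 0 members passed by age (Kcnj15 adjusted p = 0.077) and 1 was higher at P90. The fit of only the groups compared was not run for the genotype mean or the test by age, which hold all groups. With 3 arrays a group, small changes and dim probe sets are resolved poorly.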
